A study of Mus musculus with 6 samples.

Results

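The fibulins and the genes Mxra7 and Mxra8 were described in RNA-Seq data of 6 mouse liver tumor lines. These 8 genes (Efemp1, Efemp2, Fbln1, Fbln2, Fbln5, Fbln7, Mxra7 and Mxra8) were taken by symbol from the 20856 genes with values in the deposited table. Efemp1 and Mxra7 were chosen by the comparison of genotypes itself, because both were lower in the sgKmt2c lines, so their difference between genotypes is given below as a description with no test. The 6 others were chosen by family or name.

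The tumors arose in female C57BL/6 mice of 8 to 10 weeks after hydrodynamic tail vein injection, which drives plasmids into hepatocytes. Every mouse received a Myc transposon and a plasmid for Cas9 and a guide RNA. The guide targeted Trp53 in 3 lines (Myc; sgTrp53) and Kmt2c, which encodes the histone methyltransferase MLL3, in 3 lines (Myc; sgKmt2c), and the study describes the lines of a genotype as coming from different mice. The labels name sgKmt2c replicates 2 and 3 with a shared number, so both were also counted as 1 sample in an alternative, in which no gene kept an adjusted p-value under 0.05 (limma, 1053 genes at an unadjusted p under 0.05). All 6 lines thus share Myc overexpression, and no line with both target genes left intact was compared. The guide and Cas9 act in hepatocytes that took up plasmid, and each line is the outgrowth of 1 tumor, grown on collagen-coated plates until fibroblasts were no longer seen.

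Levels are RPKM, read counts scaled by transcript length and library size. The libraries held 5312182 to 6878625 reads on genes in the sgTrp53 lines and 3680068 to 4704539 in the sgKmt2c lines, so that 1 read on a transcript of 2 kb was worth 0.0726 to 0.136 RPKM. Trp53 RNA was at 17.2, 17.6 and 19.4 RPKM in the sgTrp53 lines and at 92.2, 124 and 121 RPKM in the sgKmt2c lines (replicates 1, 2 and 3, the order used throughout). It was higher in the sgKmt2c lines, by 2.56 on the log2 scale (limma, adjusted p = 0.0140). Kmt2c RNA was at 24.2, 18.4 and 19.2 RPKM against 19.7, 25.0 and 9.51 RPKM, with overlap, and its level does not tell the genotypes apart. Alb, the defining transcript of hepatocytes, was at 0.644 to 4.36 RPKM in the 6 lines. Markers of hepatocytes and of the fibroblast lineage set sgKmt2c replicate 1 apart from the other lines: the summed level of 10 hepatocyte markers was 5691 RPKM there, of which Apob made up 4385 and Hnf4a 1186 RPKM, and 19.0 to 345 RPKM elsewhere, and that of 10 fibroblast markers was 0.282 RPKM there and 18.6 to 1103 RPKM elsewhere. Not all hepatocyte markers were high in that line: Cebpa, at 4.51 RPKM, was the lowest of the 6 lines and Tat was at 0.

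Fibulins are secreted glycoproteins built from repeated calcium-binding EGF-like modules and a shared C-terminal fibulin module. They bind fibronectin, nidogens, proteoglycans, fibrillins and tropoelastin, and tie basement membranes and elastic fibres together. In liver they are known mainly as products of portal fibroblasts and myofibroblasts. Mxra7 and Mxra8 share a name (matrix remodeling associated) rather than a protein family. Mxra8 is a cell surface protein with immunoglobulin-like domains, and Mxra7 is a small membrane protein whose role is little known.

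Efemp1 (fibulin-3, ENSMUSG00000020467, GRCm38 chr11:28853204-28926743) is a secreted fibulin of basement membranes and fascia. It was at 34.8, 29.2 and 66.6 RPKM in the sgTrp53 lines (432, 317 and 935 reads) and at 0.208, 1.33 and 1.03 RPKM in the sgKmt2c lines (2, 10 and 9 reads). The lowest sgTrp53 line was thus well above the highest sgKmt2c line. The means were 43.5 ± 20.2 and 0.858 ± 0.582 RPKM (SD, n = 3 lines each), a ratio of 50.8. By summed reads scaled to library size the ratio was 55.5, with a 95% interval of 36.2 to 89.9 that covers counting error only.

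Mxra7 (ENSMUSG00000020814, chr11:116803062-116828046) showed the next wide gap. Its level was 9.86, 9.29 and 6.61 RPKM in the sgTrp53 lines (124, 102 and 94 reads) and 0, 0.263 and 0.454 RPKM in the sgKmt2c lines (0, 2 and 4 reads). A count of 0 in sgKmt2c replicate 1 allows up to 3 reads, which is 0.309 RPKM. The means were 8.59 ± 1.73 and 0.239 ± 0.228 RPKM (SD, n = 3 each), and the ratio by summed reads was 36.9 (95% counting interval 16.8 to 101). Mxra7 entered the table of tested genes through the sgTrp53 lines alone, since no sgKmt2c line reached 1 RPKM.

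Among all 11617 genes tested with limma on log2(RPKM + 1), 15 had an adjusted p-value under 0.05 (0.129%), of which 9 were lower in the sgKmt2c lines (0.0775%). Efemp1 and Mxra7 are among these 9 because they were chosen from them, with fitted log2 fold changes of -4.55 and -2.95. None of the 5 other fibulin and Mxra genes that could be tested passed this threshold. The nearest to it was Mxra8, at an adjusted p-value of 0.512 (limma).

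Mxra8 (ENSMUSG00000029070, chr4:155839680-155844088), whose protein is also known as a receptor for arthritogenic alphaviruses, was at 18.2, 133 and 31.0 RPKM in the sgTrp53 lines and at 0.193, 9.64 and 9.60 RPKM in the sgKmt2c lines. Every sgKmt2c line was below every sgTrp53 line, with 39 and 45 reads in sgKmt2c replicates 2 and 3 and 1 read in replicate 1. The means were 60.8 ± 63.0 and 6.48 ± 5.44 RPKM (SD, n = 3 each). The log2 fold change was -3.09 (95% interval -5.62 to -0.56), with an unadjusted p of 0.0238 and an adjusted p of 0.512 (limma). Within the sgTrp53 lines the highest level exceeded the lowest 7.30 times. Without sgKmt2c replicate 1 the log2 fold change was -2.04 and the lines still did not overlap. The antisense gene Mxra8os overlaps Mxra8 and held a single read over all 6 lines.

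The sequence before the annotated start is shown for these 3 genes, the ones whose lines did not overlap between the genotypes. The windows are the 250 bases upstream of a RefSeq start (GRCm38.p6), 5′ to 3′ on the strand of the gene, at chr11:28852955-28853204 (plus strand) for Efemp1, chr11:116828047-116828296 (minus strand) for Mxra7 and chr4:155839430-155839679 (plus strand) for Mxra8. Capitals mark the matches, on either strand, to the motifs listed after the sequences.
Efemp1: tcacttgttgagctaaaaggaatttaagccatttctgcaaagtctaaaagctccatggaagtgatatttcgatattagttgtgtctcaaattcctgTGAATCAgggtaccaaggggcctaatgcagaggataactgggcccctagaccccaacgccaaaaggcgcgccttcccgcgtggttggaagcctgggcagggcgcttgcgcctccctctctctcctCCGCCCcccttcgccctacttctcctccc
Mxra7: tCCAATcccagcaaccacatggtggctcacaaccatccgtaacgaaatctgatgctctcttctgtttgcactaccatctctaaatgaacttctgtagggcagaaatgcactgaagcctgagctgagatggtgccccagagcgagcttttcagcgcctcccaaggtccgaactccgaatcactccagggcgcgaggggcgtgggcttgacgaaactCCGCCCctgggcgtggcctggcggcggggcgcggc
Mxra8: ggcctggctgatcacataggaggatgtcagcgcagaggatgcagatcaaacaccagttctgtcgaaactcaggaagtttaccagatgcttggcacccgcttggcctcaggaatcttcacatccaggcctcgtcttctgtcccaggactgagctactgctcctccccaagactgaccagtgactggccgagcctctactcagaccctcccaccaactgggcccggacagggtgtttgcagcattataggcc

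The motifs searched were the TATA box as TATAAA, the CCAAT box, the GC box as GGGCGG and the E-box (which MYC binds) as CACGTG. A loose form of the AP-1 site, TGANTCA, and the p53 half-site were also searched, each motif on both strands. The Efemp1 window held a GC box whose first base lies 29 bases before the start and a TGANTCA match at 154 bases. Of 32851 mouse promoter windows of this length, 32.7% and 6.75% hold these motifs. TGANTCA allows any middle base, and the match, TGAATCA, has an A there, so it matches this loose pattern only. Binding by AP-1 was not tested. The Mxra7 window held a CCAAT match at 249 bases (33.8% of all windows) and a GC box at 35 bases, and a window before its other annotated start, which overlaps this one, held the same CCAAT match. The Mxra8 window held none of these motifs. The E-box (6.02% of all windows) was found in the family before Fbln1 alone, in both of its overlapping windows, while TATAAA (12.4%) and the p53 half-site (7.13%) were in none of the 13 windows of the 8 genes. The number of CpG in the 13 windows was between 6 and 33, at or above the median of 6 over all windows. It was 10 before Efemp1, 16 before Mxra7 and 6 before Mxra8.

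**Figure D1:**
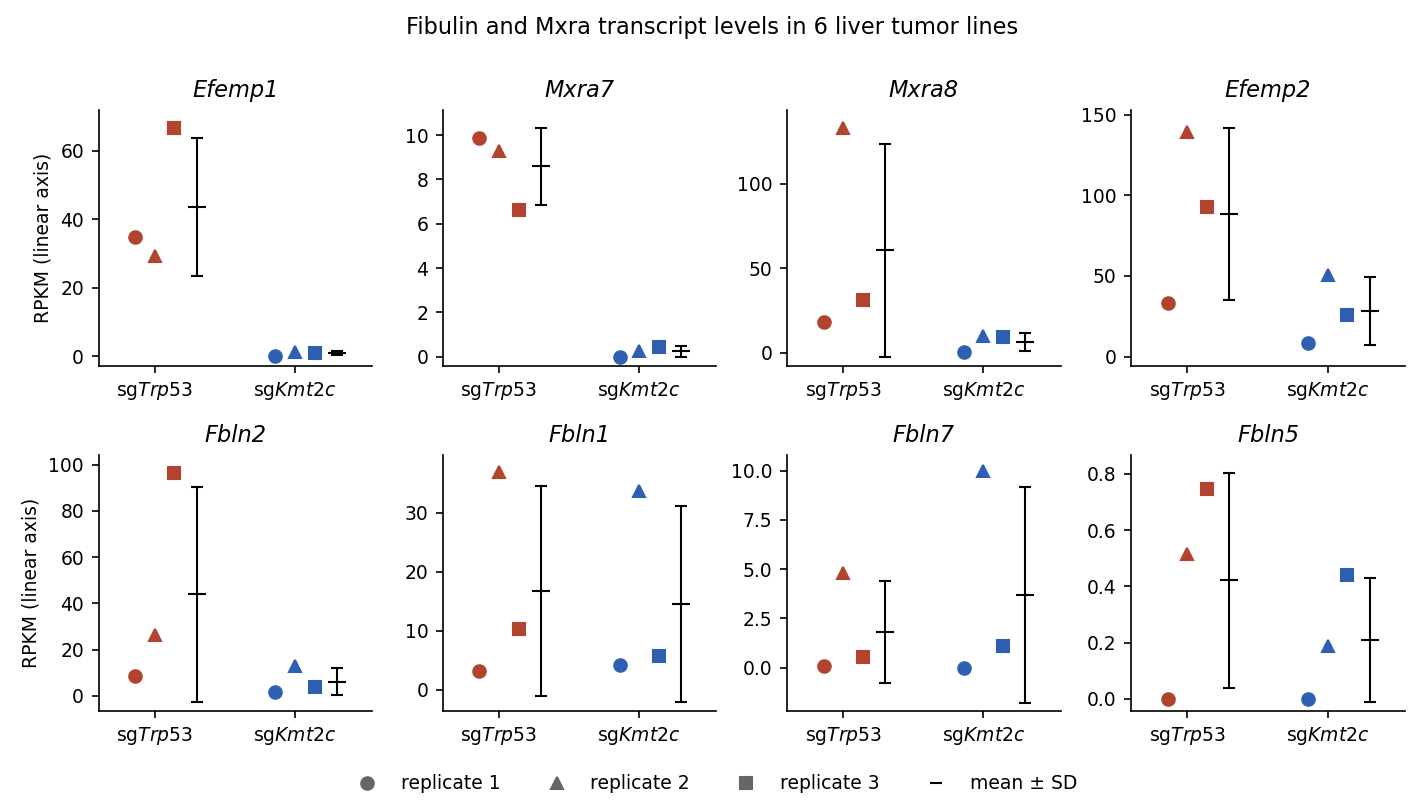
Level of each fibulin and Mxra gene in RPKM (linear axes, 1 panel per gene with its own scale) in the 3 sgTrp53 and 3 sgKmt2c lines. Symbols give the replicate number and black bars the mean ± SD over 3 lines. Efemp1, Mxra7 and Mxra8 did not overlap between the genotypes, while Fbln1 and Fbln7 were highest in replicate 2 of each genotype.

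Efemp2 and Fbln5 are the fibulins that elastic fibre assembly depends on. Efemp2 (fibulin-4, ENSMUSG00000024909, chr19:5473973-5481853), which brings lysyl oxidase to tropoelastin, was at 33.4, 140 and 92.9 RPKM in the sgTrp53 lines and at 8.29, 50.4 and 25.5 RPKM in the sgKmt2c lines. The genotypes overlapped, because sgTrp53 replicate 1 was below sgKmt2c replicate 2. The log2 fold change was -1.72 (95% interval -3.50 to 0.06, adjusted p = 0.592 from limma). Fbln5 (ENSMUSG00000021186, chr12:101746565-101819055) was at 0, 0.516 and 0.747 RPKM against 0, 0.186 and 0.441 RPKM. It was under 1 RPKM in every line and was not tested. With 0 reads in replicate 1 of each genotype, levels up to 0.0844 and 0.109 RPKM are allowed there.

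Fbln1 and Fbln2 are fibulins of basement membranes and vessel walls. Fbln2 (ENSMUSG00000064080, chr6:91212455-91272540), a known product of portal fibroblasts, was at 8.65, 26.5 and 96.6 RPKM in the sgTrp53 lines and at 1.65, 12.8 and 3.93 RPKM in the sgKmt2c lines. Only sgTrp53 replicate 1 and sgKmt2c replicate 2 were out of order between the genotypes. The log2 fold change was -2.39 (95% interval -4.64 to -0.14), with an unadjusted p of 0.0405 and an adjusted p of 0.569 (limma).

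Fbln1 (ENSMUSG00000006369, chr15:85205949-85286535) was at 3.14, 36.9 and 10.3 RPKM in the sgTrp53 lines and at 4.23, 33.7 and 5.69 RPKM in the sgKmt2c lines. Replicate 2 was highest in both genotypes and the means of 16.8 ± 17.8 and 14.5 ± 16.6 RPKM (SD, n = 3 each) were close to each other. The log2 fold change was -0.18, and its 95% interval of -2.56 to 2.20 does not exclude a change of several fold either way (adjusted p = 0.958, limma). Leaving out single lines moved the value between -1.03 and 0.64, and it was above 0 without sgTrp53 replicate 2, sgKmt2c replicate 1 or sgKmt2c replicate 3.

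Fbln7 (ENSMUSG00000027386, chr2:128862981-128897034), a fibulin that supports cell adhesion, was low in 4 lines, at 0.102, 4.77 and 0.540 RPKM in the sgTrp53 lines and at 0, 10.0 and 1.09 RPKM in the sgKmt2c lines. The 82 and 119 reads of replicate 2 carried most of its signal in each genotype. It was the only gene of the 7 tested with a fitted log2 fold change above 0, at 0.41 (95% interval -2.00 to 2.82, adjusted p = 0.907 from limma). That sign turned without sgTrp53 replicate 1 (-0.07) and in the fit on recovered reads (-0.05).

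**Figure D2:**
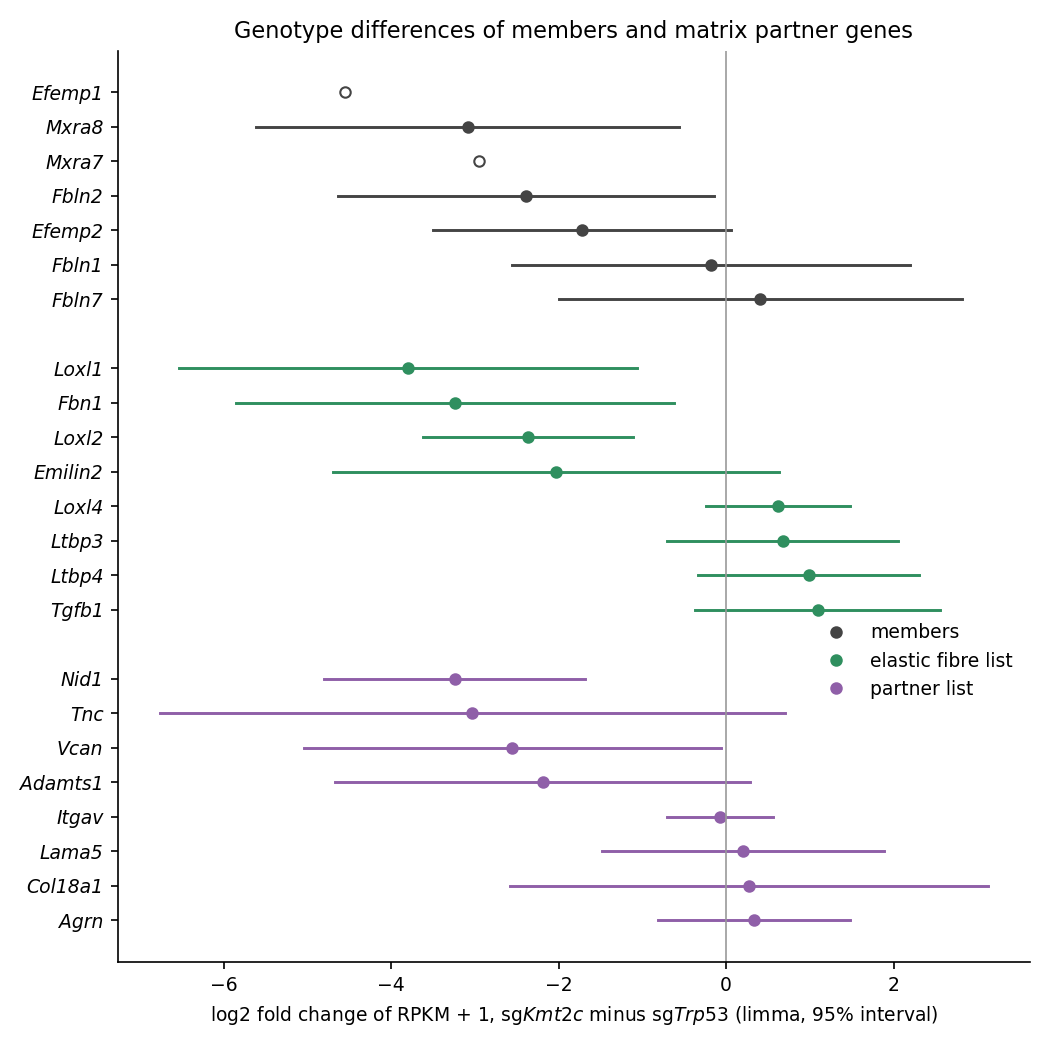
Log2 fold change of RPKM + 1 (sgKmt2c minus sgTrp53) with its 95% interval from limma for the 7 fibulin and Mxra genes tested and for the 4 lowest and 4 highest genes of an elastic fibre list and a fibulin partner list. Open circles are Efemp1 and Mxra7, which were chosen by this comparison and carry no interval. The interval of Mxra8 lies between -5.62 and -0.56 and that of Fbln1 between -2.56 and 2.20.

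Over the 5 tested genes other than Efemp1 and Mxra7, the median log2 fold change was -1.72, beside -0.09 over all genes tested. It lay between -2.66 (without sgKmt2c replicate 2) and -1.06 (without sgKmt2c replicate 1) with single lines left out. The filter was applied again each time, and Fbln7 dropped out without sgTrp53 replicate 2, sgKmt2c replicate 2 or sgKmt2c replicate 3. The -2.66 thus leaves out Fbln7, the only gene of the 5 with a positive value in the main fit. With no filter on low values, which adds Fbln5, the median was -0.97. An unadjusted p-value under 0.05 was reached by 2 of the 5, Mxra8 and Fbln2, and by 8.58% of all genes tested. Of the 5, Mxra8 alone showed no overlap between the genotypes, where the sgKmt2c lines were below the sgTrp53 lines for 10.4% of all genes and did not overlap in either direction for 16.2%. Leaving out sgTrp53 replicate 1 raised the genes without overlap from 3 to 6 of the 8 (with Efemp2, Fbln2 and Fbln5 added), and leaving out sgKmt2c replicate 2 raised them to 5 (with Efemp2 and Fbln2 added). With fewer lines a gene can only lose overlap, and the share of all genes tested with the sgKmt2c lines lower rose from 10.4% to 15.4% and 17.1% in these 2 cases. The other lines left the number at 3. Without sgKmt2c replicate 1, the line set apart by its markers, the log2 fold change was -4.26 for Efemp1, -2.81 for Mxra7, -2.04 for Mxra8, -1.84 for Fbln2, -1.06 for Efemp2, 0.33 for Fbln1 and 1.16 for Fbln7.

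For all of the 7 tested genes but Mxra7, the lines within a genotype differed more than for most genes. The SD within genotype of log2(RPKM + 1) was 1.15 for Efemp2, 1.46 for Fbln2, 1.54 for Fbln1 and for Fbln7 and 1.65 for Mxra8, the 92.3rd to the 97.0th percentile of all genes tested, beside a median of 0.368. Efemp1, at 0.559, and Mxra7, at 0.274, were the least variable of the 7, but a small spread is part of what chose them. On the RPKM scale the highest sgTrp53 line exceeded the lowest by 2.28 times for Efemp1 and 1.49 times for Mxra7, and by 4.18 to 47.0 times for the 5 others.

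**Figure D3:**
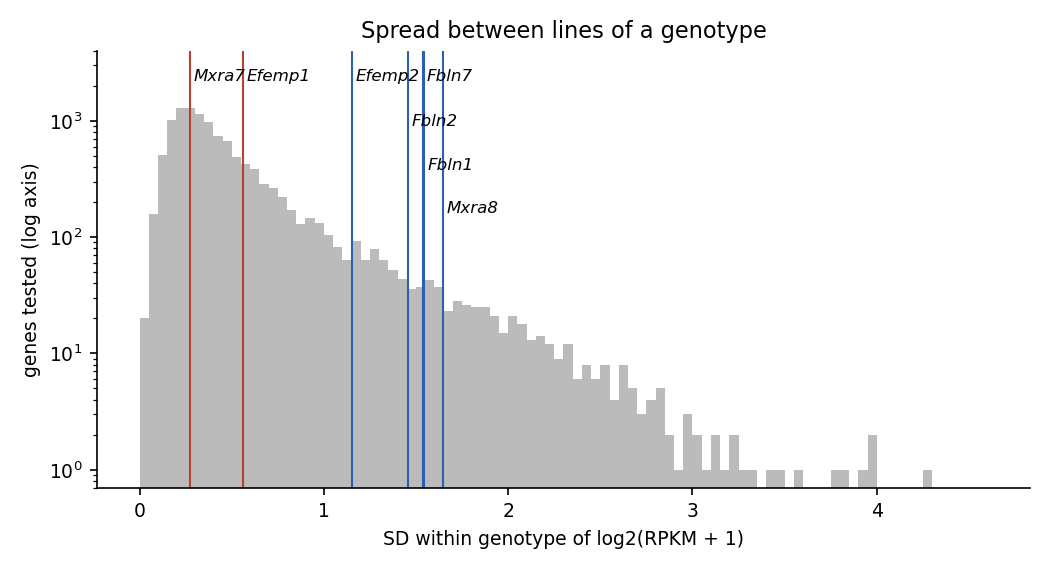
SD within genotype of log2(RPKM + 1) for all 11617 genes tested (grey bars, number of genes on a log axis) with the 7 tested fibulin and Mxra genes as vertical lines, red for the 2 chosen by the comparison of genotypes and blue for the others. The blue lines lie between 1.15 and 1.65, in the upper tail.

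A pair of arrangements of the lines recurred, both seen only after the values were known. First, replicate 2 was the highest line in both genotypes for 4 of the 7 genes tested (Efemp2, Fbln1, Fbln7 and Mxra8) and for 13.9% of all genes tested. For Mxra8 in the sgKmt2c lines this order rests on 9.64 against 9.60 RPKM. Second, sgKmt2c replicate 1 was the lowest of all 6 lines for 6 of the 7, every one but Fbln1, and for 35.4% of all genes tested. Summed over the 8 genes, the level was 108, 380 and 305 RPKM in the sgTrp53 lines and 14.6, 118 and 47.8 RPKM in the sgKmt2c lines.

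By level per length, the leading gene of the family was Efemp1 in sgTrp53 replicate 1, Efemp2 in sgTrp53 replicate 2 and Fbln2 in sgTrp53 replicate 3. Efemp2 led in all 3 sgKmt2c lines, where it made up 56.9%, 42.6% and 53.5% of the summed RPKM. Its level is divided by a listed length of 742 bases although its longest coding transcript in GENCODE M1 is 2.40 times that, and the listed length of Mxra8, 1097 bases, is exceeded 2.01 times. The rank of these 2 genes depends on that choice, while the ratios of their RPKM between lines do not. Log2 fold changes of RPKM + 1 shift with it where levels are low, as for Mxra8 in sgKmt2c replicate 1 (0.193 RPKM). In the listed coordinates Efemp2 ends before its neighbour Mus81 begins (chr19:5482345), and whether counting used strand is not stated.

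Correlations of log2(RPKM + 1) over the 6 lines are given as a description, since all pairs share the same libraries. Efemp1 and Mxra7 ran together (Pearson r = 0.965), as genes selected on the same contrast must. Efemp2 and Mxra8 (r = 0.947), Fbln1 and Fbln7 (r = 0.927) and Efemp2 and Fbln2 (r = 0.880) also ran together. Fbln1 and Fbln7 had little relation to the first pair, at r = 0.105 and -0.116 with Efemp1 and 0.0826 and -0.111 with Mxra7.

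The 3 genes most like each tested gene over the 6 lines were found among all genes tested. For Efemp1 they included Pdpn, which encodes a membrane mucin (r = 0.992), and Mical1, whose product oxidises actin (0.989). For Mxra7 they were Iglon5 (0.998), the pseudogene Itpa-ps1 (0.998) and the flagellin receptor gene Tlr5 (0.993). Pdpn was at 11.0, 11.4 and 22.9 RPKM in the sgTrp53 lines and at 0, 0 and 0.129 RPKM in the sgKmt2c lines. Tlr5 was at 4.55, 4.62 and 4.13 against 0.0745, 0 and 0.329 RPKM. A gap between genotypes follows from the choice by likeness to Efemp1 and Mxra7, which were chosen for theirs. Its width can differ, as Itpa-ps1 was at 8.79, 9.13 and 7.78 against 4.27, 4.54 and 4.70 RPKM.

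Nearest to Fbln1 were Asap1 (r = 0.995), the splicing factor gene Rbfox2 (0.994) and the homeobox gene Dlx1 (0.992), and nearest to Fbln7 were Mcur1 (0.995), Ssc5d (0.994) and Ptpdc1 (0.994). Dlx1 was at 0.0798, 13.4 and 2.01 RPKM against 0.258, 8.45 and 1.14 RPKM, again highest in replicate 2 of each genotype. Efemp2 was closest to Kctd20 (0.991), Ddx58 (0.988) and Cnst (0.985), Fbln2 to S1pr2 (0.988), B3galnt1 (0.986) and the gamma actin gene Actg1 (0.985), and Mxra8 to Zfp516 (0.996), Rtf1 (0.994) and the interferon-induced Gbp2 (0.994). With 6 lines and 11617 genes, such values carry no test.

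Elastic fibre genes, to whose products several fibulins bind, were listed as 21 genes: elastin, fibrillins, microfibril proteins, latent TGF-β binding proteins, lysyl oxidases, emilins and TGF-β ligands. Of the 14 that could be tested, 0 had an adjusted p-value under 0.05 (limma) and 4 had an unadjusted p-value under 0.05, all 4 lower in the sgKmt2c lines, beside 8.58% of all genes in either direction. Fitted values were negative for 10 and positive for 4, with a median log2 fold change of -0.96. Without sgKmt2c replicate 1 that median was 0.04, so it rests on that line. Elastin itself (Eln) did not exceed 0.0906 RPKM in any line.

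Among the cross-linking enzymes, Loxl1 was at 55.7, 67.4 and 42.9 RPKM in the sgTrp53 lines and at 0, 27.1 and 1.26 RPKM in the sgKmt2c lines, without overlap (log2 fold change -3.80, adjusted p = 0.457 from limma). Loxl2, at 2.31, 4.56 and 12.0 against 0.519, 0.102 and 0.0440 RPKM, had the lowest adjusted p of the list at 0.322 (log2 fold change -2.37). The microfibril gene Fbn1 was at 2.15, 73.5 and 15.5 RPKM against 0, 0.716 and 1.71 RPKM, also without overlap (log2 fold change -3.23, adjusted p = 0.504). Loxl2 did not overlap either. In all, every sgKmt2c line was below every sgTrp53 line for 4 of the 14 genes tested, beside 10.4% of all genes. Emilin2 stood at -2.03. The 4 highest were Tgfb1 at 1.10 (adjusted p = 0.650), Ltbp4 at 0.99 (adjusted p = 0.651), Ltbp3 at 0.68 and Loxl4 at 0.62, each with overlap between genotypes.

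Of 20 known binding partners of fibulins and related long fibulins, 19 were in the table and 14 could be tested. None had an adjusted p-value under 0.05 (limma). An unadjusted p-value under 0.05 was reached by 2, both lower in the sgKmt2c lines, beside 8.58% of all genes in either direction. The median log2 fold change was -0.89, with 11 negative and 3 positive values. It was -0.25 without sgKmt2c replicate 1, where Itgb3 no longer passed the filter. Nid1, a nidogen that links laminin to collagen IV in basement membranes, was at 11.3, 22.9 and 54.7 RPKM in the sgTrp53 lines and at 2.60, 0.359 and 2.98 RPKM in the sgKmt2c lines. It was the only gene of the 14 with every sgKmt2c line below every sgTrp53 line, as 10.4% of all genes were, and had the lowest adjusted p (log2 fold change -3.24, unadjusted p = 0.00190, adjusted p = 0.266, limma).

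The matrix glycoprotein Tnc stood at -3.03 on the log2 scale (limma, adjusted p = 0.632). The proteoglycan Vcan stood at -2.55 (limma, unadjusted p = 0.0457, adjusted p = 0.579) and the protease Adamts1 at -2.19. At the other end were Agrn (0.33), Col18a1 (0.27) and Lama5 (0.20), which encode basement membrane components, and the integrin gene Itgav (-0.07). The sign of these last 4 turned when single lines were left out.

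Markers of other cells were read beside these genes, since in a bulk library fewer cells of a type and less RNA per cell cannot be told apart. The 10 fibroblast markers summed to 18.6, 1103 and 294 RPKM in the sgTrp53 lines and to 0.282, 156 and 122 RPKM in the sgKmt2c lines. Of these 10, 5 could be tested, none had an adjusted p-value under 0.05 (limma), and Pdgfra and Lum were under 1 RPKM in every line. Col3a1 made up most of the sum in both replicate 2 lines and in sgKmt2c replicate 3, at 814, 115 and 92.9 RPKM. Replicate 2 had the highest sum in each genotype, as it had the highest Efemp2, Fbln1, Fbln7 and Mxra8, and the part of this signal in those 4 genes was not tested.

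Some single markers had the order of Efemp1, Mxra7 and Mxra8, with every sgKmt2c line below every sgTrp53 line, and were picked out after their values were seen. This order was held by 10.4% of all genes tested. Among the markers tested it was held by 0 of 5 fibroblast, 1 of 8 mesenchymal and 1 of 2 immune markers. None of the 6 hepatocyte and 6 biliary and progenitor markers tested had it. The fibroblast marker Dcn was at 7.39, 0.897 and 8.16 RPKM in the sgTrp53 lines and at 0, 0 and 0.248 RPKM in the sgKmt2c lines, too low in most lines to be tested. Twist1, a mesenchymal transcription factor, was at 3.65, 7.56 and 2.07 against 0, 0.671 and 0.145 RPKM (unadjusted p = 0.00347, adjusted p = 0.328, limma). Csf1r, the receptor that marks macrophages, was at 10.0, 1.70 and 8.33 against 0.932, 0 and 0.967 RPKM (unadjusted p = 0.0122, adjusted p = 0.440, limma), while Ptprc, the general leukocyte marker, did not exceed 0.0655 RPKM. The part of any of these in the levels of Efemp1, Mxra7 and Mxra8 was not tested.

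The 8 mesenchymal markers summed to 2781, 2952 and 4132 RPKM against 3891, 4867 and 2174 RPKM, nearly all of it Vim. The 6 stellate cell markers reached 21.8 RPKM in sgKmt2c replicate 2, of which Hgf made up 20.9 RPKM, and no more than 2.59 RPKM elsewhere, with Lrat at 0 in every line. Biliary and progenitor markers summed to 925, 91.5 and 1011 RPKM against 3469, 91.5 and 430 RPKM, lowest in both replicate 2 lines. The 6 endothelial markers summed to at most 0.636 RPKM, with Emcn at 0 in every line, and immune markers to between 2.79 and 17.8 RPKM, with Cd3e at 0 in every line.

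**Figure D4:**
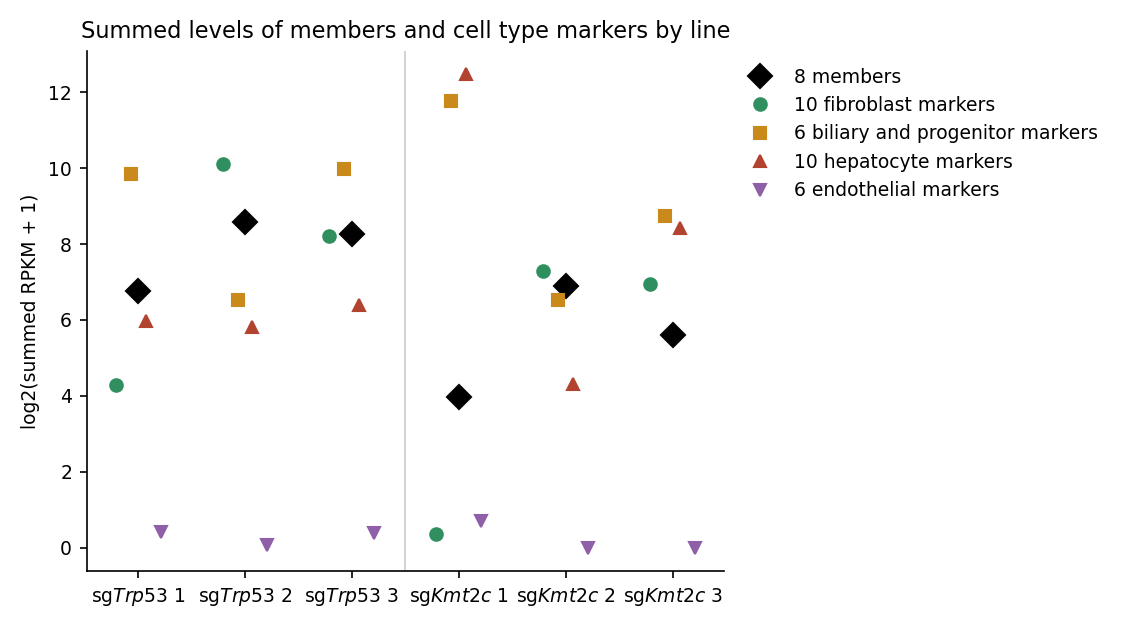
Summed RPKM, as log2(sum + 1), of the 8 fibulin and Mxra genes (black diamonds) and of 4 marker lists in each line (number after the genotype: replicate). The 8 genes and the fibroblast markers were lowest in sgKmt2c replicate 1, at 14.6 and 0.282 RPKM, where hepatocyte and biliary markers were highest.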

How the data were processed

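RNA-Seq of 6 liver tumor lines (3 Myc; sgTrp53, 3 Myc; sgKmt2c) was analysed, with groups from the sample labels. TruSeq RNA libraries of the 6 lines were run in the same 2 lanes of 1 flow cell. Per the labels and the study's methods, the authors trimmed reads with Trimmomatic, aligned them to GRCm38 with STAR, counted them with HTSeq and deposited RPKM values, called FPKM in the methods, on 1 transcript length per gene. The use of strand is not given in the sources used here. The deposited table has 21065 rows, 209 of them without values, and 6 columns of other samples that were not used. The authors' DESeq2 1.8.2 comparison (mean counts, fold changes and p-values) was not used.

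RPKM times length gave whole reads (within 0.01 read) for 100% of values. The main test was limma 3.58.1 (R 4.3.3, with trend), applied to log2(RPKM + 1) of the 11617 genes having at least 1 RPKM in at least 3 of 6 libraries, genotype as the only term, two-sided, with Benjamini-Hochberg adjustment over all genes. The fit was tested on simulated data. A count test was planned only for raw counts. Per the study, replicate lines of a genotype came from different mice. The 8 genes and all lists were chosen with earlier results of these data known. Named are the 8 genes, both targets, of each list the genes past adjusted p under 0.05 or otherwise the 4 lowest and 4 highest tested, the 3 most correlated genes per member, and marker sums. Genes that fall outside this rule (Eln, other single markers, Mxra8os and Mus81) were named after their values were seen. Promoters came from RefSeq (GRCm38.p6), which matched all 8 genes. Protein features were planned and are not reported here. Some genes that the rule names are not reported here. Alternatives were the pseudocount, filter, scaling, moderation, voom on recovered reads, a replicate block, sgKmt2c replicates 2 and 3 as 1 sample, and each line left out.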

Additional observations from a re-analysis of the deposited data

How the results depend on the processing

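The direction of Mxra8, Efemp2 and Fbln2 was the same under every alternative that could be computed for them. That of Efemp1 and Mxra7 was too, but both were chosen for being lower in the sgKmt2c lines, so this tests nothing. The number past an adjusted p of 0.05 did change. Efemp1 and Mxra7 were chosen because they passed in the main fit, so the following describes that choice and tests nothing: the 2 became 0 with a pseudocount of 0.1, with no filter, with the stricter filter (1 RPKM in all 6 libraries, which removes both genes), with limma voom on recovered reads, with a replicate block, and with sgKmt2c replicates 2 and 3 as 1 sample. With single lines left out the number was 0 to 1, and Mxra7 was not past the filter without any one sgTrp53 line. No gene of the elastic fibre or partner lists passed under any alternative. All genes past the threshold went from 15 to 6 (pseudocount 0.1), 5 (no filter), 6 (stricter filter), 4 (voom), 0 (replicate block) and 0 (replicates 2 and 3 as 1 sample), and to 0 to 7 with single lines left out, the 7 without sgKmt2c replicate 1. At an unadjusted p under 0.05 limma still called 1085 genes with the replicate block, 1053 with the merged lines and 497 to 1448 with single lines left out. Whether the replicate numbers pair the lines was not settled. The correlations of deviations between equal numbers were 0.192, 0.399 and 0.0316, and those between unequal numbers lay between -0.284 and 0.152.

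The median log2 fold change of the elastic fibre list was 0.68 under the stricter filter, -2.36 under voom and -1.579 to 0.043 with single lines left out. That of the partner list was -0.15 with no filter, -0.19 with the stricter filter and -1.20 to -0.25 with single lines left out. Genes of the family without overlap numbered 3 to 6 with single lines left out, an alternative added after seeing the data. Signs that turned, none of them called, were those of Fbln1 (-1.03 to 0.64 with single lines left out), Fbln7 (-0.045 under voom and -0.069 to 1.163), Kmt2c (-0.54 to 0.11), Agrn (-0.20 to 0.66), Col18a1 (-0.83 to 0.96), Lama5 (-0.55 to 0.65) and Itgav (0.008 under median-of-ratios scaling and -0.31 to 0.12). For these changes the cause was not tested. The stricter filter kept fewer genes. With a line left out the filter was also applied again, so that a list could lose genes. Loxl2, for example, was not past it without any one sgTrp53 line. Fbln7 was not past it without sgTrp53 replicate 2, sgKmt2c replicate 2 or sgKmt2c replicate 3, so its range covers the other lines only. Depth limits Mxra7 and Fbln5 most, whose sgKmt2c lines held 6 and 15 reads in all.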
